A study of Homo sapiens with 15 samples.

Results

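The genes described here lie at the tip of the short arm of chromosome 16, in the subtelomere of 16p. They are the protein-coding genes of the count table that start within the first 2 Mb of the chromosome (GENCODE 44, GRCh38), without the symbols that begin with RPS, RPL or NDUF. The annotation places 93 protein-coding genes there. Of these, 2 had no row in the table and 3 were left out by their symbol, which leaves 88 genes out of 57272 in the table. The region was selected on the log2 fold changes of senescent against young cells with the empty vector, so the values of that comparison are given as a description and no test is read from them. RNA-seq had been performed on the MRC-5 line of human lung fibroblasts, grown in low oxygen, in 5 groups of 3 libraries. Every group carried a pWPIR-GFP lentivirus, either empty or expressing TRF2. The young groups were cells at PD 30 (population doubling 30) with the empty vector and control siRNA, with TRF2 and control siRNA, or with the empty vector and siLMNB1. The senescent groups had received either virus before the arrest and had stopped dividing, and their labels name a control siRNA. According to the study's methods, senescent cells expressing TRF2 had gone through more doublings than those with the empty vector. The labels mark the 6 senescent libraries, and none of the 9 young ones, as reanalysed from an earlier deposit, so deposit and senescence cannot be told apart. The replicates are called triplicates and nothing states whether they came from separate infections, so p-values measure the spread between these libraries, which may be technical.

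Subtelomeres are the regions that adjoin the telomere repeats, and a gene placed near a telomere can be silenced by it, which is known as telomere position effect. TRF2 is a shelterin protein that binds the duplex repeats and protects the chromosome end, and lamin B1 is a structural protein of the nuclear lamina. The tip of 16p is dense in genes and rich in G and C. It holds the alpha-globin cluster with its upstream housekeeping neighbours, a cluster of mast cell tryptases, and many genes that every cell uses.

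The RefSeq promoter table (GRCh38.p14), with 250 bases before and 50 after each start, held an entry for 62 of the 88 genes. Their median GC content was 72.7% against 58.7% for all 35116 promoters of the same length, and their median ratio of observed to expected CpG was 0.931 against 0.579. A GC box (GGGCGG, searched on both strands) occurred in 50 of the 62 (80.6%) and in 45% of all promoters. A TATA box (TATAAA, both strands) occurred in 1.61% and 11.5%, respectively. The telomere repeat TTAGGG (both strands) occurred in 4 of the 62 (6.45%, namely HBM, LUC7L, MRPL28 and BAIAP3) and in 9.05% of all, and 2 copies in tandem occurred in 0 of the 62 and in 0.0057% of all. In the 2 Mb of genome sequence itself there were 4 runs of at least 2 tandem copies, and the longest, with 5 copies, lay at the tip (chr16:10004-10033, reverse strand).

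The 3 upstream stretches printed here are examples from genes with opposite values, and their sequences were not compared by a test. RHBDL1 and BAIAP3 were upregulated in senescent cells expressing TRF2 with and without correction for GC content, whereas JPT2 had lower values in all senescent libraries. With the empty vector and that correction, RHBDL1 and BAIAP3 did not meet the thresholds (log2 fold change 0.87 and 0.67). The sequences run from 250 bases upstream to the last base before any annotated exon, on the forward strand of GRCh38.p14, with GC boxes on either strand in capitals. The RHBDL1 stretch is chr16:675421-675670, that of BAIAP3 chr16:1333395-1333637 and that of JPT2 chr16:1678029-1678255.
RHBDL1: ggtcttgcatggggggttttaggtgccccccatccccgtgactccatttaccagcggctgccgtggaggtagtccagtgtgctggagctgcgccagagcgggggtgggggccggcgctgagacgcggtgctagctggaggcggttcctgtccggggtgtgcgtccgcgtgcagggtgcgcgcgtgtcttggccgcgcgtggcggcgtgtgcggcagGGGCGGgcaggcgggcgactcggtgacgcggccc
BAIAP3: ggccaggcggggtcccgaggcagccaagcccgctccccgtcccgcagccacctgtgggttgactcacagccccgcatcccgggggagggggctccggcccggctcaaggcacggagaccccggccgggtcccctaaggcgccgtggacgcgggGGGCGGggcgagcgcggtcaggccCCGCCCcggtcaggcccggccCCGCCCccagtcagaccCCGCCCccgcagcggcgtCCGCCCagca
JPT2: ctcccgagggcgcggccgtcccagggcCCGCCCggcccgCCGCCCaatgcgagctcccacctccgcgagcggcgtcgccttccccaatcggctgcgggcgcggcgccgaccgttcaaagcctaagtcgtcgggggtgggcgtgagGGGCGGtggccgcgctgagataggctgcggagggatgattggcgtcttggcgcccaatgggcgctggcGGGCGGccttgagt
The GC content was 72.8% for RHBDL1, 80.7% for BAIAP3 and 74.9% for JPT2, and the stretches held 1, 5 and 4 GC boxes. The telomere repeat counted above for BAIAP3 lies in its stretch, on the reverse strand, and is not marked.

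The libraries held between 26725885 and 43116046 counts. TERF2, which encodes TRF2, had 23.8 ± 1.81 CPM (read counts scaled to library size after TMM normalisation, SD, n = 3) in young cells with the empty vector and 25 ± 1.47 in senescent ones. It had 195 ± 97.7 CPM in young cells expressing TRF2 and 235 ± 43.6 in senescent cells expressing TRF2. LMNB1 fell from 59.7 ± 1.2 CPM to 2.67 ± 0.281 with siLMNB1, and stood at 5.13 ± 0.526 in senescent cells with the empty vector and 3.34 ± 0.574 in those expressing TRF2 (n = 3 each). The slope of log2 counts on GC content, taken against the mean young library with the empty vector and per 10 percentage points, was −0.0049 to 0.13 in young and 0.458 to 0.821 in senescent libraries. Replicate 3 of senescent cells with the empty vector stood apart with the slope of 0.821, against 0.458 to 0.504 in the other 5. Comparisons were repeated with library-specific offsets that remove the trends with GC content and exonic length. Fibroblast markers summed to 20033 to 33387 CPM. The erythroid markers HBG1, GATA1 and ALAS2 and the mast cell markers MS4A2, CMA1 and FCER1A were at 0 in all libraries. Other markers of these lists were not: HBD, a globin gene, made up nearly all of an erythroid sum of 13.7 to 15 CPM with siLMNB1 and 0.63 to 3.49 CPM elsewhere, and KIT, a receptor of mast cells among others, nearly all of a mast cell sum of 11.6 to 21.2 CPM in young libraries, 9.2 to 35.9 in senescent ones with the empty vector and 38.9 to 49.1 in those expressing TRF2. The 5 mesothelial markers summed to 8.34 to 13.5 CPM in young and 32.3 to 49.4 CPM in senescent libraries, carried by CALB2 (6.23 to 40.5 CPM) and KRT19 (1.93 to 8.59 CPM), while UPK3B, LRRN4 and WT1 stayed at or below 0.296 CPM. The part of these markers in the results was not tested. In such bulk samples, fewer cells of a type and less RNA per cell cannot be told apart.

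Of the 88 genes, 64 passed the filter on low counts and 24 did not. Those under the filter were mostly genes of specialised cells. In the alpha-globin cluster, HBM and HBA1 had no count in any library, HBZ and HBA2 had 1 count each in all libraries together, and only HBQ1, the theta globin gene, passed the filter. The tryptase genes TPSB2 and TPSD1 had no count and TPSG1 and TPSAB1 2 counts each. HBA1 and HBA2, like TPSAB1 and TPSB2, are near-identical copies whose reads may be dropped when they map to both. No library held more than 11 counts of any of the 24 genes, among them SOX8, a neural crest transcription factor, MEIOB, a meiotic recombination protein, and MSLN, the mesothelial surface protein mesothelin, which had 39 counts in all. SSTR5, MSLNL, C1QTNF8 and HS3ST6 had no count either.

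Among the tested genes, the level per length in young cells with the empty vector was highest for MRPS34, a subunit of the mitochondrial ribosome, at 60.1 CPM per kb of exon, followed by the RNA modification factor TSR3 (35.9), the nucleoside diphosphate kinase NME4 (33.4), PGAP6 (27.8) and JPT2 (26.8). The median was 4.33 CPM per kb. In senescent cells with the empty vector the order was NME4 (70.1), PGAP6 (67.8), TSR3 (65.1), MRPS34 (57.4) and STUB1 (50.5), and the median was 7.79. The 88 genes together took 0.161% to 0.201% of all counts in the young libraries and 0.292% to 0.415% in the senescent ones. The highest share, 0.415%, was that of replicate 3 of senescent cells with the empty vector.

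The exons were GC-rich, with a median GC content of 64.5% over the 88 genes (range 40.9% to 72.2%) against 47.6% for all tested protein-coding genes. Many of these genes are interleaved with neighbours. Exons of 27 of the 88 genes overlapped no exon of another gene, and 37 shared over 10% of their exonic bases. The sources used here do not give the strand setting of the counting, so it is not known whether reads in exons shared by genes on opposite strands were dropped or assigned by strand.

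In senescent against young cells with the empty vector, the comparison that chose the region, 40 of the 64 tested genes met the study's thresholds for upregulation (adjusted p below 0.05, log2 fold change 1 or more), beside 16.7% of all 15799 genes tested. None met those for downregulation, beside 11.8% of all genes (0 of 64 by edgeR, with 2 at an unadjusted p below 0.05, and 0 by DESeq2). The calls are not the study's own list, which was kept to protein-coding genes and pseudogenes and was shorter. The median log2 fold change was 1.17, beside 0.02 over all genes tested, and 60 of the 64 values lay above 0. These counts include 6 genes that were not over the filter in all young libraries with the empty vector (HBQ1, RGS11, ARHGDIG, WFIKKN1, CCDC78 and SPSB3). Among the other 58, 35 met the thresholds and the median was 1.12. In 50 of the 64 genes every senescent library lay above every young one, beside 31.9% of all genes, and in 2 every one lay below, beside 32.8%. By the adjusted p alone, 52 genes were higher (beside 32.7%) and 2 were lower (beside 31.9%). Without replicate 3 of senescent cells with the empty vector, 29 of the 64 met the thresholds and the median was 0.95. The share of all genes was not taken in that fit.

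**Figure D1:**
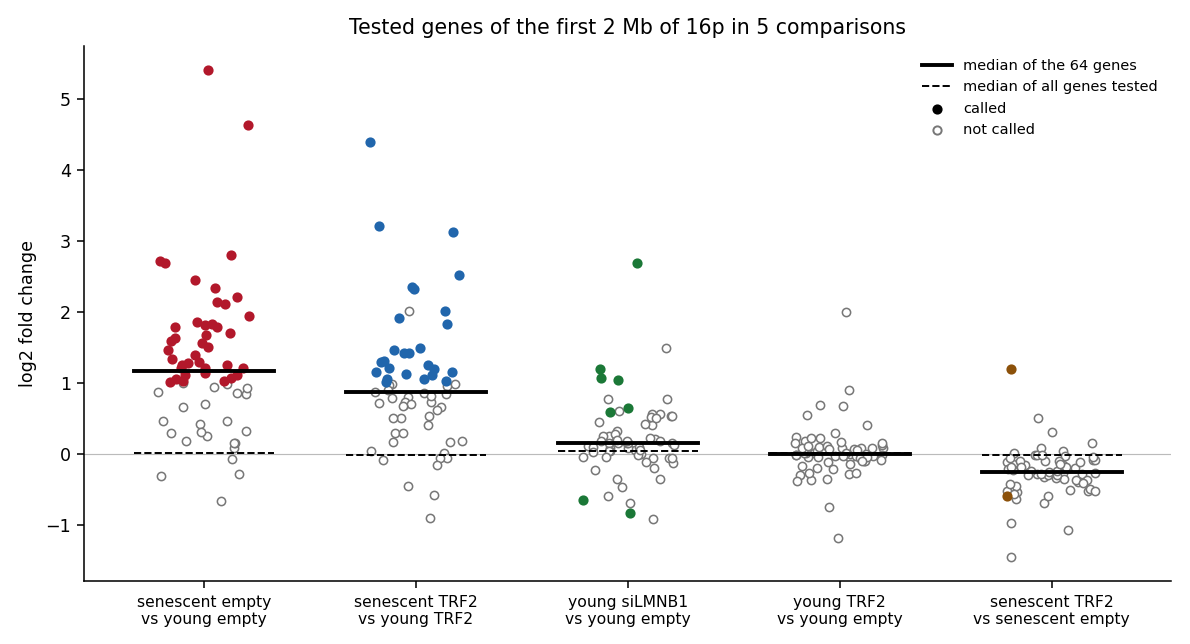
Log2 fold change (vertical axis) of each of the 64 tested genes in the 5 comparisons (horizontal axis). Filled points met the thresholds of their comparison, thick lines are the medians of the 64 genes and dashed lines those of all genes tested. The points lie mostly above 0 in both senescence comparisons (medians 1.17 and 0.88), whereas the other medians are 0.15, −0.00 and −0.25.

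The largest values belonged to genes that were nearly silent in young cells. RGS11, a GTPase-activating regulator of G protein signalling, had 0.0349, 0.117 and 0.186 CPM in the young and 2.83, 4.26 and 7.61 CPM in the senescent libraries (log2 fold change 5.41, SE 0.48). The young libraries held only 1, 4 and 5 counts of it, and 21.7% of its exonic bases are shared with other genes. FBXL16, an F-box protein that does not rest on such small counts (26, 26 and 18 in the young libraries), went from 0.906, 0.763 and 0.670 CPM to 16.2, 19.1 and 23.3 CPM (log2 fold change 4.64, SE 0.21). Neither gene had overlapping groups.

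MAPK8IP3, a JNK scaffold known from axonal transport, had 8.51, 9.04 and 9.19 CPM in young and 31.0, 69.7 and 86.4 CPM in senescent cells with the empty vector (log2 fold change 2.81, SE 0.31). Its senescent libraries were spread widely and all lay above the young ones. ARHGDIG and SPSB3, a SOCS box protein with 69% of its exonic bases inside exons of neighbours, had log2 fold changes of 2.72 (SE 0.84) and 2.69 (SE 0.70) on at most 6 counts per young library.

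At the other end of the range stood JPT2, with 123, 128 and 133 CPM in young and 82.7, 77.6 and 82.5 CPM in senescent cells (log2 fold change −0.66, SE 0.07), and FAHD1, a mitochondrial hydrolase, with 66.8, 67 and 67.5 against 52.5, 52.8 and 60.4 CPM (−0.28, SE 0.08). Their groups did not overlap. CHTF18, part of the clamp loader for sister chromatid cohesion, had 6.97, 7.22 and 8.37 CPM in young and 3.01, 5.56 and 9.56 CPM in senescent libraries, which overlap (−0.31, SE 0.30).

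Senescent against young cells that both express TRF2 use 6 libraries that had no part in choosing the region. In edgeR's quasi-likelihood test (adjusted after Benjamini and Hochberg over all genes tested), 26 of the 64 genes were upregulated, or 40.6% beside 11.9% of all genes. No gene met the thresholds for downregulation (0 of 64 by edgeR, with 3 at an unadjusted p below 0.05, and 0 by DESeq2), beside 12.1% of all genes. The median log2 fold change was 0.88, beside −0.02 over all genes tested, and 57 of the 64 values were above 0. In 50 of the 64 genes every senescent library lay above every young one, which was so for 34.7% of all genes, and in 4 every one lay below, beside 36.6%. Among the 56 genes that were over the filter in all young libraries expressing TRF2, 22 were upregulated and the median was 0.86. Of the 26, 24 had also met the thresholds with the empty vector, which is 92.3% of the 26 and 60% of the 40. Leaving out each of the 6 libraries in turn gave between 24 and 28 upregulated genes, with no share of all genes taken in these fits.

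FBXL16 rose most, from 0.570, 1.19 and 0.814 CPM in young to 18.8, 18.7 and 17.0 CPM in senescent cells expressing TRF2 (log2 fold change 4.40, SE 0.20, adjusted p = 2.70e-11, edgeR's quasi-likelihood test). SYNGR3, a synaptic vesicle protein, rose from 2.64, 2.88 and 2.94 CPM to 26.9, 27.7 and 24.0 CPM (3.22, SE 0.21, adjusted p = 2.06e-09, same edgeR test). Its exons overlap no other gene. In both genes the senescent libraries lay tightly together and far above the young ones.

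RGS11 went from 0.489, 0.297 and 0.595 CPM to 4.49, 3.95 and 3.70 CPM (log2 fold change 3.13, SE 0.38, adjusted p = 2.99e-06, same edgeR test), now on 10 to 19 counts in each young library. HBQ1 went from 0.0543, 0.148 and 0 CPM to 0.287, 0.573 and 0.370 CPM (2.52, SE 0.81). The theta globin gene had 2, 5 and 0 counts in the young libraries, so its fitted change depends on the prior count, and 3 of the 6 leave-one-out fits no longer called it (without young replicate 1 or 3 or senescent replicate 2). SPSB3, with 1, 2 and 3 counts in the young libraries, went from 0.0272, 0.0594 and 0.0939 CPM to 0.287, 0.446 and 0.228 CPM (2.36, SE 0.68). HBQ1 and SPSB3 were under the filter of 0.313 CPM in all young libraries expressing TRF2 and passed it through senescent libraries, so their values are a description.

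A few genes had lower values. JPT2 went from 110, 108 and 122 CPM to 76.7, 77.6 and 74.1 CPM (log2 fold change −0.58, SE 0.07, adjusted p = 4.69e-06, same edgeR test), and no libraries of the groups overlapped. CHTF18 changed by −0.90 (SE 0.31, adjusted p = 0.0205, same edgeR test) and MRPS34 by −0.45 (SE 0.17, adjusted p = 0.0371, same edgeR test). All 3 passed the adjusted p, beside 30.1% of all genes, and none the fold change threshold. By the adjusted p alone 47 genes were higher, beside 28.2%.

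**Figure D2:**
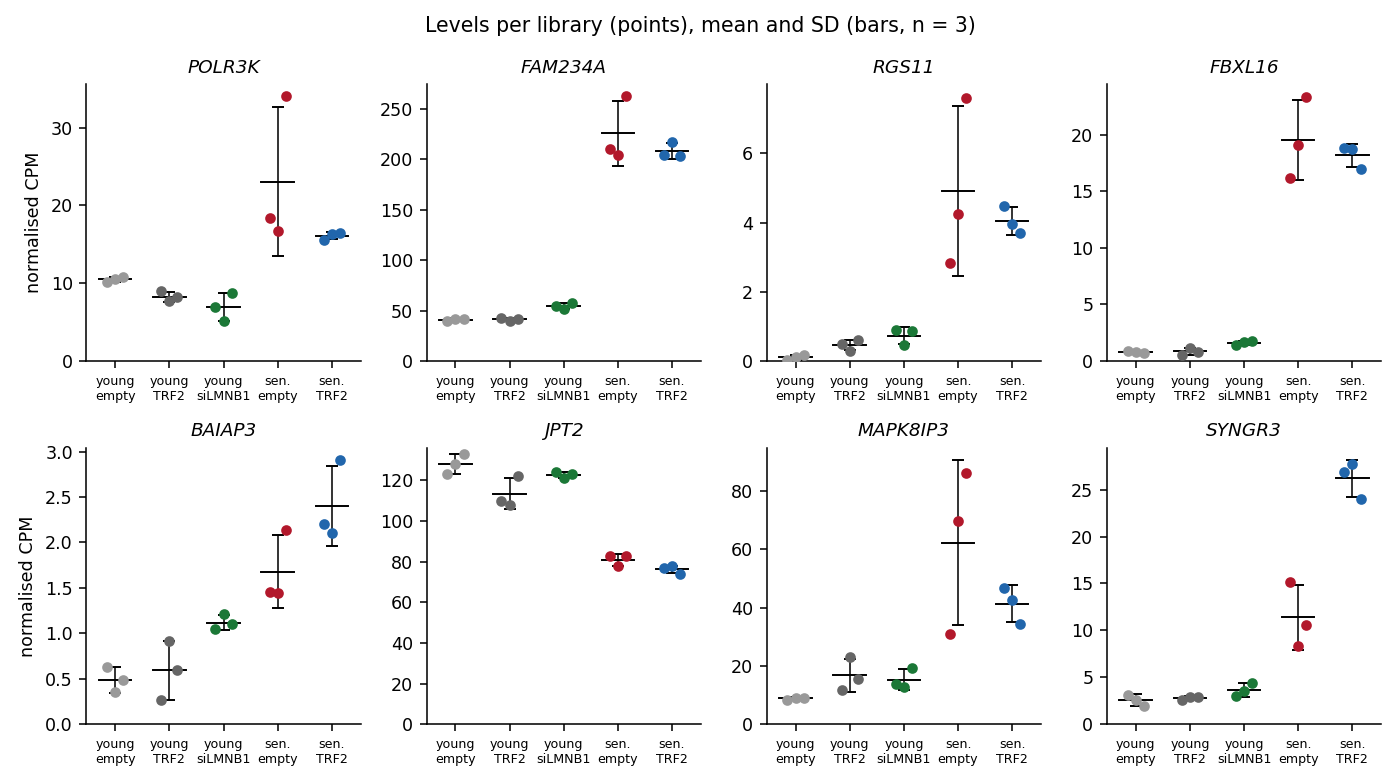
Normalised CPM (vertical axes, linear, from 0) of 8 genes in each of the 15 libraries (points), with the mean and SD of each group (bars, n = 3). The senescent libraries of FAM234A and FBXL16 lie far above all young ones, those of JPT2 lie below, and the levels of SYNGR3 are highest in senescent cells expressing TRF2.

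The genes are described next by function in cells expressing TRF2, as counts to be read beside the 11.9% of all genes and 40.6% of the 64 that were upregulated, with no test of a group. Both rhomboid genes were upregulated, namely RHBDF1, an inactive rhomboid that governs the trafficking of a shedding protease (log2 fold change 1.21), and RHBDL1 (1.92). Of the 4 tested genes for G protein and small GTPase signalling, RGS11 and RAB11FIP3, an effector of recycling endosomes (1.15), were upregulated, whereas RAB40C (0.97) and ARHGDIG (2.01) did not meet both thresholds. Of the 4 tested genes for protein folding and turnover, FBXL16, the chaperone-linked ubiquitin ligase STUB1 (1.20) and JMJD8 (1.02) were upregulated, and CAPN15 was not (0.73).

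The genes for lipid anchors and lipases included PGAP6 (1.12) and LMF1, a lipase maturation factor (1.43), which were upregulated, and PIGQ (0.99), which was just under the fold change threshold. Around the lysosome, GNPTG, a subunit of the enzyme that tags lysosomal hydrolases with mannose phosphate, had a log2 fold change of 1.49 and WDR24, a subunit of the GATOR complex that activates mTORC1, of 1.13, and both were upregulated. The chloride-proton exchanger CLCN7 (0.79) did not meet the threshold, and NPRL3, of the GATOR complex that inhibits mTORC1, stood at 0.01. Among the ciliary genes, IFT140, an intraflagellar transport protein (1.15), and WDR90 (1.31) were upregulated, and CCDC78 was not (0.72).

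The 10 genes listed as mitochondrial include some that act elsewhere, such as the peroxisomal DECR2. Of the 10, only HAGH, glyoxalase II, which hydrolyses lactoylglutathione (1.84), and NME3 (1.42) were upregulated. The mitochondrial ribosome subunits MRPL28 (0.04) and MRPS34 (−0.45) were not among them. In cytosolic iron-sulphur cluster assembly, NUBP2 was upregulated (1.06) and CIAO3 was not (0.74). The 5 genes of the RNA machinery were all under the threshold, with values from −0.09 for the splicing factor LUC7L to 0.96 for POLR3K, a subunit of RNA polymerase III. All 5 tested genes of genome maintenance were under it too, from −0.90 for CHTF18 to 0.82 for the endonuclease subunit EME2. After offsets for GC content and length, RHBDL1, RGS11, FBXL16, GNPTG and HAGH kept their call among the genes named by function, and the others that were upregulated had values from 0.25 (JMJD8) to 0.70 (LMF1). With the empty vector, where 16.7% of all genes and 62.5% of the 64 met the thresholds, the counts were 2 of 2 for the rhomboids, 4 of 4 for G protein signalling, 3 of 4 for protein folding, 3 of 3 for lipid anchors and lipases, 3 of 4 around the lysosome, 2 of 3 for the cilium, 5 of 10 for the genes listed as mitochondrial, 1 of 2 for iron-sulphur assembly, 2 of 5 for the RNA machinery and 1 of 5 for genome maintenance.

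**Figure D3:**
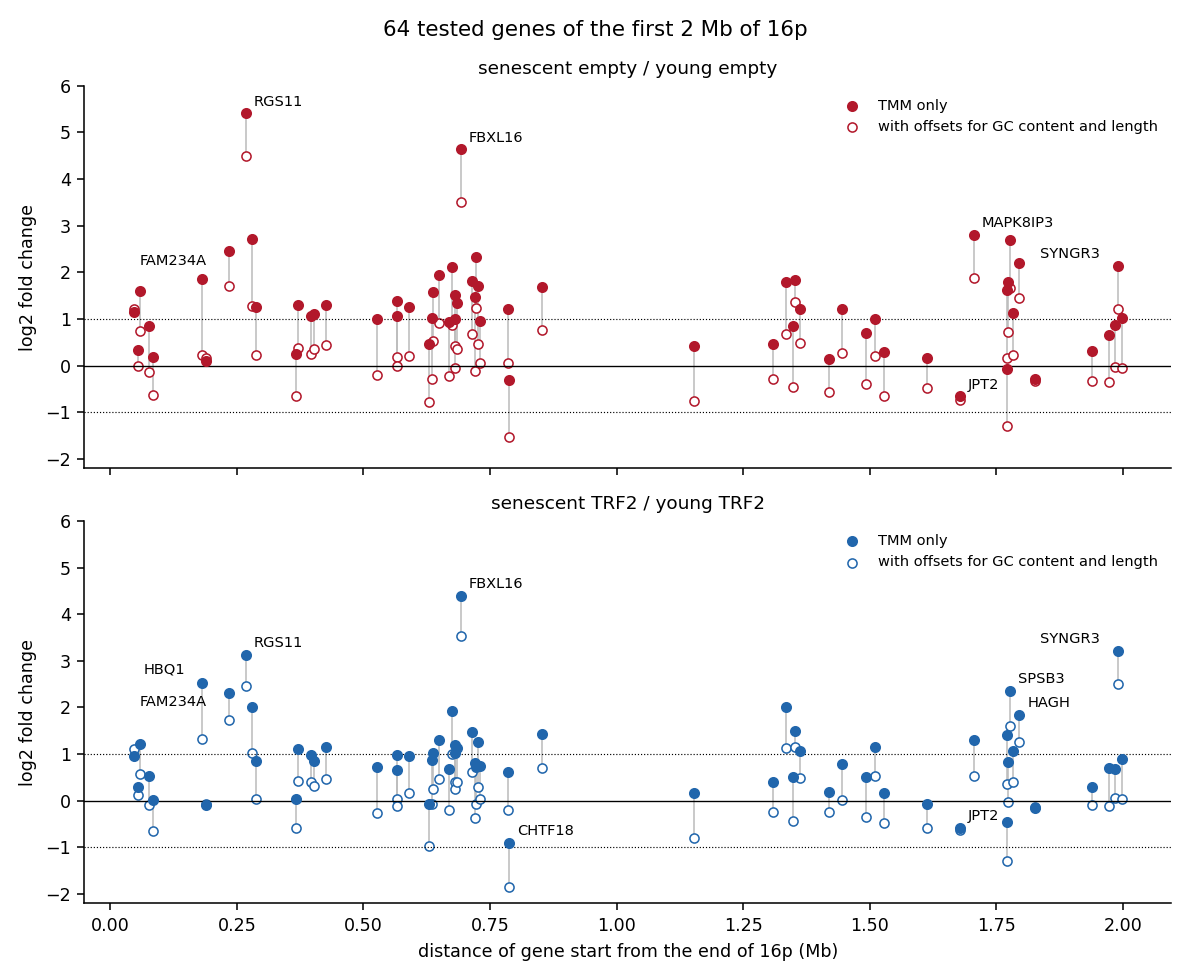
Log2 fold change (vertical axis) against the distance of the gene start from the end of 16p in Mb (horizontal axis) for the 64 tested genes, in cells with the empty vector (upper) and expressing TRF2 (lower). Filled points are values after TMM normalisation, open points those with offsets for GC content and length, and dotted lines mark the thresholds. High values such as those of RGS11, FBXL16 and SYNGR3 are scattered over the whole stretch, and nearly all open points lie below the filled ones.

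The genes were also grouped by distance from the telomere. In steps of 0.5 Mb from the end, 6 of 16, 10 of 22, 3 of 9 and 7 of 17 tested genes were upregulated in cells expressing TRF2, with medians of 0.98, 0.98, 0.51 and 0.82. With the empty vector the counts were 11, 17, 4 and 8, beside 16.7% of all genes, with medians of 1.19, 1.36, 0.86 and 0.99. They were 3, 1, 1 and 3 with the offsets, beside 10.7% of all genes. Over the 64 genes, Spearman's rank correlation between the log2 fold change and the position was −0.09 for cells expressing TRF2 and −0.11 for the empty vector. These genes share libraries and neighbours, so both values are a description.

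The 4 genes nearest to the end differed among themselves. POLR3K had 8.94, 7.66 and 8.17 CPM in young and 15.6, 16.3 and 16.4 CPM in senescent cells expressing TRF2 (log2 fold change 0.96, SE 0.22, adjusted p = 0.00138, same edgeR test), under the fold change threshold, and with the offsets it was upregulated at 1.11. SNRNP25, a protein of the minor spliceosome, had 26.7, 24.2 and 28 against 32.4, 32.2 and 32.2 CPM (0.29, SE 0.13, adjusted p = 0.0669, same edgeR test), groups that do not overlap but differ little. RHBDF1 went from 69.1, 84.4 and 80.5 to 174, 188 and 177 CPM and was upregulated (1.21, SE 0.12, adjusted p = 2.06e-07, same edgeR test).

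MPG, a glycosylase of base excision repair, went from 30.1, 23.0 and 25.7 to 39.4, 39.3 and 36.3 CPM in cells expressing TRF2 (log2 fold change 0.54, SE 0.15, adjusted p = 0.00618, same edgeR test), and its value was −0.10 with the offsets. With the empty vector the log2 fold changes of POLR3K, SNRNP25, RHBDF1 and MPG were 1.14, 0.33, 1.60 and 0.84. That of POLR3K was 0.72 without replicate 3 of the senescent cells.

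At the far limit, the last genes inside were SYNGR3 and ZNF598, a ubiquitin ligase that acts on collided ribosomes, with log2 fold changes of 2.14 and 1.03 with the empty vector. The first protein-coding genes beyond the limit, NPW, which encodes neuropeptide W, and NHERF2, a scaffold of membrane transporters, had 2.28 and 1.02. With TRF2 the values were 3.22, 0.90, 1.22 and 0.81 in the same order.

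**Figure D4:**
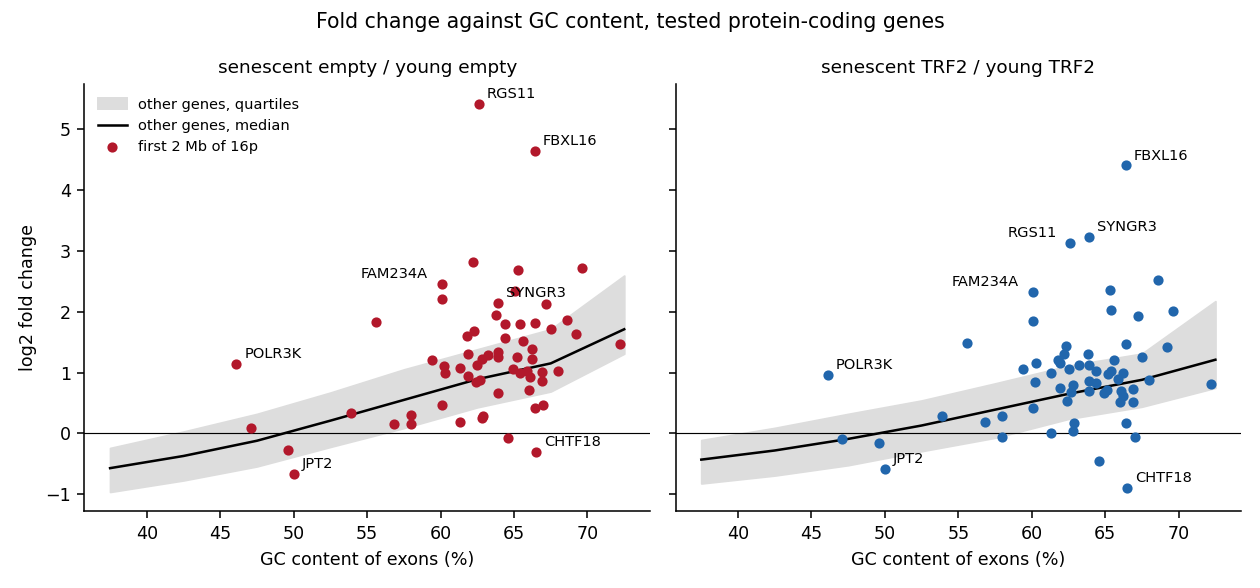
Log2 fold change (vertical axes) against the GC content of the exons in percent (horizontal axes) for the 64 tested genes (points), in cells with the empty vector (left) and expressing TRF2 (right). The line and the band are the median and the quartiles of the other tested protein-coding genes in steps of 5 percentage points. The band rises with GC content, most points lie at high GC content, and FBXL16, RGS11, SYNGR3, FAM234A and POLR3K are among those above the band in both panels.

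Values moved with GC content across the genome. Among tested protein-coding genes elsewhere with a GC content of at least 60%, 32.1% of 1637 were upregulated in senescent cells expressing TRF2, with a median log2 fold change of 0.71. Of the 54 tested genes of the region at or above this GC content, 44.4% were, with a median of 0.98. Of the 10 under it, 2 were, with a median of 0.23. For the empty vector the genes elsewhere had 46.4% and a median of 0.95, and those of the region 68.5% and 1.26. The 2 classes were not matched, with a median GC content of 64.5% in the region and 62.8% elsewhere. From 60% to 65%, the medians in cells expressing TRF2 were 0.99 in the region and 0.65 elsewhere. From 65% to 70% they were 0.98 and 0.88. No test was made of the difference between these shares.

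After offsets for GC content and exonic length, 9 of the 64 genes were upregulated in cells expressing TRF2 (14.1%, beside 8.5% of all genes) and the median fell to 0.09, with 38 values above 0. For the empty vector, 8 met the thresholds (12.5%, beside 10.7%) and the median was 0.21, while CHTF18 and MRPS34 met those for downregulation (beside 10.3%). The 9 genes were POLR3K, FAM234A, RGS11, RHBDL1, FBXL16, BAIAP3, GNPTG, HAGH and SYNGR3, and all but POLR3K had also been upregulated without the offsets. RHBDL1 and BAIAP3 were not among the 8 with the empty vector, which included MAPK8IP3. CHTF18 (−1.84, adjusted p = 1.09e-05, same edgeR test) and MRPS34 (−1.29, adjusted p = 2.05e-10, same edgeR test) were then downregulated, beside 11.7% of all genes. The source of the GC slope was not tested.

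The genes that were upregulated with and without the offsets included housekeeping genes with many counts. FAM234A had 43.0, 40.1 and 41.9 CPM in young and 204, 217 and 203 CPM in senescent cells expressing TRF2, and its log2 fold change of 2.32 (SE 0.10) was 1.73 with the offsets (adjusted p = 3.30e-13, same edgeR test). HAGH went from 19.9, 18.2 and 20.9 to 67.6, 75.7 and 68.6 CPM, and its value of 1.84 became 1.27 (adjusted p = 1.20e-07, same edgeR test). The groups of both genes were far apart. For GNPTG, with 35.4, 36.1 and 32.7 against 92.7, 101 and 98.2 CPM, the value of 1.49 became 1.15 (adjusted p = 4.19e-08, same edgeR test), but 50.6% of its exonic bases are shared.

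Some neighbours that start head to head had different values, a comparison chosen after the values were seen. HAGH (chr16:1795620-1827157, reverse strand) and FAHD1 (chr16:1826967-1840207, forward strand) overlap at their starts. In cells expressing TRF2, HAGH was upregulated, whereas FAHD1 had 63.8, 58.6 and 60.6 CPM in young and 54.7, 54.7 and 54.5 CPM in senescent libraries (log2 fold change −0.16, SE 0.08, adjusted p = 0.0855, same edgeR test). GNPTG (forward strand, from 1351931) and TSR3 (reverse strand, from 1351878) also start side by side, with log2 fold changes of 1.49 and 0.51. The difference between the genes of a pair was not tested.

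In young cells depleted of lamin B1 with siLMNB1, 6 of the 64 genes were upregulated (9.38%, beside 10.3% of all genes, at a log2 fold change of at least 0.58) and 2 were downregulated (beside 8.06%). The median was 0.15, beside 0.04 over all genes tested. The control libraries are those that served to choose the region. With young cells expressing TRF2 as the control instead, 6 genes were upregulated (beside 8.34%) and 1 was downregulated (beside 7.67%), but not the same ones. RGS11, BAIAP3, IFT140 and CHTF18 were then not called, and RHBDL1 (0.92), HAGHL (0.58) and NME3 (0.72) were. With young empty vector controls and the offsets, 4 were upregulated (beside 9.73%) and 4 downregulated (beside 8.96%), and the median was 0.00. By the adjusted p alone 13 were higher (beside 16.4%) and 4 lower (beside 16.1%), and the libraries did not overlap in 24 higher genes (beside 29.5%) and 7 lower ones (beside 27.9%).

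RGS11 went from 0.0349, 0.117 and 0.186 CPM to 0.885, 0.464 and 0.857 CPM with siLMNB1 (log2 fold change 2.69, SE 0.58). It had 1, 4 and 5 counts in these control libraries, all under the filter of 0.313 CPM, and passed the filter through other groups. This value is therefore a description. All siLMNB1 libraries lay above all controls. Against young cells expressing TRF2, with 0.297 to 0.595 CPM, the value was 0.69 (adjusted p = 0.259, same edgeR test). BAIAP3, a protein of dense core vesicle traffic, went from 0.628, 0.352 and 0.484 to 1.05, 1.21 and 1.10 CPM (1.2, SE 0.37, adjusted p = 0.0189, same edgeR test), a call that was lost without control replicate 2 or 3 (adjusted p = 0.0882 and 0.0504, same edgeR test) or against young cells expressing TRF2 (0.92, adjusted p = 0.0608, same edgeR test). DECR2, a reductase of peroxisomal fatty acid oxidation, went from 6.14, 7.34 and 6.07 to 12.1, 14.0 and 14.9 CPM (1.07, SE 0.18, adjusted p = 0.000241, same edgeR test). Senescent cells with the empty vector had 11.4, 11.8 and 18.8 CPM of it.

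FBXL16 rose to 1.44, 1.64 and 1.76 CPM with siLMNB1 (log2 fold change 1.05, SE 0.24, adjusted p = 0.0033, same edgeR test), far under its levels in senescent cells. IFT140 rose from 12.4, 11.8 and 12.4 to 18.2, 19.1 and 19.8 CPM (0.65, SE 0.09, adjusted p = 7.35e-05, same edgeR test), and by 0.50 against young cells expressing TRF2, under the fold change threshold. LMF1 was the sixth gene (0.59, SE 0.12). None of the groups of these genes overlapped.

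CHTF18 fell to 3.80, 3.65 and 5.14 CPM with siLMNB1 (log2 fold change −0.83, SE 0.30, adjusted p = 0.0442, same edgeR test), and this call was lost in 5 of the 6 fits without one library (adjusted p = 0.0721 to 0.134, same edgeR test), in all but the one without siLMNB1 replicate 3, and against young cells expressing TRF2 (−0.46, adjusted p = 0.286, same edgeR test). TMEM204, a membrane protein of endothelial and other cells, fell from 8.68, 9.10 and 7.93 to 5.47, 5.63 and 5.32 CPM (−0.65, SE 0.15, adjusted p = 0.00334, same edgeR test). In senescent cells TMEM204 did not differ past the threshold, at 8.48, 9.70 and 13.2 CPM with the empty vector.

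Young cells expressing TRF2 were compared with young cells with the empty vector. By edgeR's quasi-likelihood test 0 of the 64 were upregulated (beside 0.152% of all genes) and 0 downregulated (beside 0.0127%), with 5 higher and 2 lower at an unadjusted p below 0.05 and 0 by DESeq2. The lowest adjusted p was 0.277, for RGS11 (log2 fold change 2.00, SE 0.62, same edgeR test). The median was −0.00, beside 0.01 over all genes tested. By the adjusted p alone the counts were also 0, beside 0.152% and 0.0253% of all genes, and so they were with the offsets, beside 0.203% and 0.0253%. The libraries did not overlap in 7 higher genes (beside 11.7%) and 8 lower ones (beside 12%). The control libraries are again those that chose the region.

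Between senescent cells expressing TRF2 and those with the empty vector, 1 gene was upregulated (beside 2.61% of all genes) and 1 downregulated (beside 4.3%). SYNGR3 stood at 15.2, 8.37 and 10.6 CPM with the empty vector and 26.9, 27.7 and 24.0 CPM with TRF2, with no overlap (log2 fold change 1.20, SE 0.19, adjusted p = 0.00101, same edgeR test). It was upregulated without any one of these 6 libraries, whereas with only these 6 libraries in the fit the adjusted p was 0.0691 (same edgeR test). In young cells the effect of TRF2 on SYNGR3 was 0.12, and the test of the difference between senescent and young cells, at 1.08, did not pass the threshold (adjusted p = 0.0987, same edgeR test). By the study's methods, young cells had carried TRF2 for days and senescent cells for many doublings. Exposure to TRF2 and senescence therefore cannot be told apart in this difference.

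The lower gene was RPUSD1, a pseudouridine synthase-like protein, with 42.2, 46.3 and 82.9 CPM with the empty vector and 34.9, 37.8 and 41.5 CPM with TRF2 (log2 fold change −0.59, SE 0.18, adjusted p = 0.045, same edgeR test). Without replicate 3 with the empty vector its log2 fold change was −0.21 (adjusted p = 0.13, same edgeR test), and without TRF2 replicate 1, 2 or 3 the adjusted p was 0.16, 0.13 and 0.0791 (same edgeR test), so the call was lost in 4 of the 6 fits. By the adjusted p alone 2 genes were higher (beside 4.87%) and 3 lower (beside 6.41%). With the offsets 1 was upregulated (beside 2.8%) and 0 downregulated (beside 4.58%), and the libraries did not overlap in 2 higher genes (beside 12.9%) and 14 lower ones (beside 13.9%). Over the 64 genes the median was −0.25, beside −0.02 over all genes tested, and it was −0.02 without that library. These comparisons share the senescent libraries with the empty vector with the one that chose the region.

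The difference between the senescence effect with TRF2 and with the empty vector was tested per gene. It contains the fold changes on which the region was selected, so it is not independent of that choice and its direction is not read. It passed the threshold in 0 of the 64 genes by edgeR's quasi-likelihood test (beside 1.13% of all genes), with 1 higher and 8 lower at an unadjusted p below 0.05 and 3 genes by DESeq2. The count was 9 without replicate 1 of senescent cells with the empty vector and 6 without the filter on low counts. For these fits and DESeq2 the share of all genes was not taken, so their counts are not read as a result. RGS11 had a difference of −2.28 (adjusted p = 0.129, same edgeR test), and its young level was lower with the empty vector than with TRF2 in every library. MAPK8IP3 had a difference of −1.51 (adjusted p = 0.0998, same edgeR test). It stood at 11.8, 23.0 and 15.7 CPM in young and 46.8, 42.8 and 34.5 CPM in senescent cells expressing TRF2. Both genes were among the largest rises with the empty vector, so the sign of their differences is a description.

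Values like those of 16p were found in other gene-dense, GC-rich stretches. Of these, the ends of 19p, 11p and 9q, like that of 16p, are among those the study itself found enriched in upregulated genes at senescence. They were therefore not chosen independently of these data. In cells expressing TRF2, 19 of the 54 tested protein-coding genes from 2 to 4 Mb on 16p were upregulated (35.2%, beside 11.9% of all genes, median 0.71). At the ends of 19p, 11p and 9q, within 2 Mb, 25 of 55, 14 of 42 and 21 of 49 were upregulated, with medians of 0.96, 0.79 and 0.89. With the offsets, the medians were 0.16 for 2 to 4 Mb of 16p, 0.12 for 19p, 0.17 for 11p and 0.14 for 9q, beside 0.09 for the first 2 Mb of 16p. The upregulated shares were then 11.1%, 20%, 14.3% and 20.4% in the same order. They stand beside 14.1% for the first 2 Mb of 16p and 8.5% of all genes. The stretches were not tested against each other.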

How the data were processed

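RNA of 15 MRC-5 libraries (5 groups, n = 3) was analysed. The authors used Trimmomatic on the paired reads and STAR for alignment to GRCh38, and the deposited values are its raw counts per gene, not normalised. The gene annotation release and the strand setting are not given in the sources used here. STAR's gene counting leaves out reads that map to several places or, on the strand counted, to more than 1 gene, which lowers the counts of such genes.

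Groups came from the labels. Counts were filtered with filterByExpr (0.313 CPM at this depth), normalised by TMM, and modelled with 1 mean per group (edgeR 4.0.16, R 4.3.3). The quasi-likelihood test was adjusted by Benjamini-Hochberg over 15799 genes. Each SE was derived as the absolute log2 fold change divided by the square root of the F statistic, and is approximate at low counts. Genes were called at adjusted p below 0.05 with log2 fold changes beyond 1 (senescence) or 0.58 (siLMNB1, and TRF2 against empty vector). DESeq2 1.42.0 served as an alternative. Offsets for GC content and exonic length came from a loess curve (span 0.3) per library. Names, positions and overlaps came from GENCODE 44, which lacks 324 genes of the table. Steps were tested on simulated data for senescent against young cells with the empty vector: 90.8% of 195 genes given a log2 change of 2 were recovered among 15412, with 0 false calls, and an added GC trend gave 851 false calls without and 2 with the offsets among 15406 genes. Python 3.11.15, pandas 2.3.3 and matplotlib 3.10.9 served for summaries and figures.

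The genes, lists and tests were chosen with earlier results of these data known. Values per library are given for the 5 largest rises and 3 largest falls with the empty vector, up to 5 upregulated and 3 downregulated genes of each other comparison, the 4 genes nearest to the end and those beside the limit. Values of FAM234A, HAGH, GNPTG, FAHD1 and MAPK8IP3 with TRF2 were added after they were seen. Counting depth and 3 libraries a group limit the precision.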

Additional observations from a re-analysis of the deposited data

How the results depend on the processing

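Replicate numbers did not pair the libraries (correlation of same-numbered deviations −0.0936 to 0.0602), and a replicate block changed 1 count over the 64 genes, that of genes lower in senescent cells with TRF2 against empty vector (0 instead of 1). Offsets for GC content and length, with and without the replicate block, gave 8 higher, 2 lower and a median of 0.21 for senescence with the empty vector, 9, 2 and 0.09 with TRF2, 4 lower and a median of 0.00 for siLMNB1, and 0 lower for TRF2 in senescent cells. Under them SNRNP25 (−0.00, with the block −0.01), MPG (−0.13) and ZNF598 (−0.06) turned negative with the empty vector, and MPG with TRF2 (−0.10, with the block −0.09). Without a fold change threshold there were 2 lower genes with the empty vector, 47 higher and 3 lower with TRF2, 13 and 4 for siLMNB1, and 2 and 3 for TRF2 in senescent cells. Among the 16 tested genes without exonic overlap, 10 were higher with the empty vector and 7 with TRF2, 0 were higher and 1 lower for siLMNB1, and 0 lower for TRF2 in senescent cells. With young cells expressing TRF2 as control, siLMNB1 had 1 lower gene. Without the filter on low counts 3 genes were higher with TRF2 in young cells, 4 were lower with TRF2 in senescent cells, and 6 passed the test of the difference between senescence effects. With only the libraries compared the first count was 1 and senescent cells had 0 higher and 0 lower. DESeq2 gave 2 lower for TRF2 in senescent cells and 3 for the difference. Leaving out 1 library at a time gave 0 to 1 lower genes with TRF2 (1 without replicate 1 of either group), 1 to 3 for siLMNB1, 0 to 11 for TRF2 in senescent cells (11 without replicate 1 with the empty vector, 0 without replicate 3) and 0 to 9 for the difference (9 without that replicate 1). CHTF18 with the empty vector ranged from −0.83 without senescent replicate 3 to 0.01 without senescent replicate 1. The cause was not tested. The share of all genes was not taken for the replicate block, DESeq2, the omitted filter or fits on fewer libraries. The counts of these fits are therefore not read as results. Of the values for single genes, 375 kept direction and call, 37 lost and 5 gained the call, and 9 turned.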
